A study of Mus musculus with 16 samples.

Results

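The data describe 10 genes of the Eph and ephrin family in astrocyte ribosome-bound RNA and whole-tissue RNA of mouse cortex. They are 7 Eph receptors (Ephb1, Ephb2, Ephb3, Ephb4, Ephb6, Epha4 and Epha5) and 3 ephrin-B ligands (Efnb1, Efnb2 and Efnb3). The members were chosen by gene symbol from the 24060 genes in the tables, and the family was picked because Ephb3 has the largest fall among the genes called in stressed astrocytes. All 10 symbols were found in each of the 16 libraries. The values of stressed against naïve astrocyte RNA therefore chose the family, and they are given as a description without a test.

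Eph receptors are receptor tyrosine kinases that bind ephrins on the surface of a neighbouring cell, and most contacts send a signal into both cells. EphB receptors mainly bind the transmembrane ephrin-B ligands, EphA receptors mainly bind lipid-anchored ephrin-A ligands, and EphA4 binds both kinds. In the brain these proteins guide axons and shape dendritic spines, and astrocytes carry both receptors and ligands at their contacts with synapses.

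All mice were 3 months old, of C57BL/6J background and Aldh1l1CreERT2-RiboTag genotype, and received tamoxifen at 2 months. The Aldh1l1 promoter drives the inducible Cre in astrocytes, so that their ribosomes carry an HA-tagged Rpl22 and can be pulled out of a lysate. Stressed mice swam for 20 min and rested for 90 min, and naïve mice stayed in the home cage. RNA from the pulled-down ribosomes (IP) and from the cleared lysate of somatosensory cortex (INPUT, all cell types) was sequenced, giving 4 groups of 4 libraries: IP of naïve mice, IP of stressed mice, and the INPUT of either. Replicates are called here by the library numbers in the labels. The labels place the experiment a month after tamoxifen and the methods 2 weeks after the last injection. Per the methods, the mice were 4 males and 4 females, and animals were homogenized one by one. Which IP and INPUT came from the same mouse, and the sex of each mouse, are not given with the samples. Sex did not enter the comparisons, and it was not inferred from the levels of sex-linked genes.

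Between 16392876 and 25814364 reads were counted on genes in a library, and values are CPM, reads scaled to a library total of 1000000. At this depth 3 reads stood for at most 0.183 CPM, and the member with the fewest reads had at least 72 in every library. Of 6 astrocyte markers, all 6 were higher in naïve IP than in naïve INPUT (log2 ratios of 3.42 to 4.13). All 16 markers of neurons, oligodendrocytes, their precursors and microglia were lower in IP (−4.74 to −1.53), and none of them was at 0. Of 5 markers of endothelium and mural cells, 4 were lower (−3.89 to −1.91) and Pdgfrb, a pericyte receptor, was higher (2.37). Some libraries stood apart. Without naïve IP replicate 11 or stress IP replicate 15 the genes called between stress and naïve IP rose from 55 to 122 or 101, and without naïve INPUT replicate 14 or stress INPUT replicate 9 those in INPUT rose from 6 to 32 or 18.

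The RefSeq promoters (GRCm38.p6, 250 bases before to 50 bases after the start of transcription) of the 3 receptors that were higher in IP and of Efnb1, the ligand whose stress and naïve values were separate in both fractions, are shown because the results turn on these genes. Each is written 5′ to 3′ on the strand of the gene, with CG dinucleotides in capitals. The Ephb1 promoter lies at chr9:102354644-102354943 (minus strand), Ephb3 at chr16:21204545-21204844 (plus), Ephb4 at chr5:137349859-137350158 (plus) and Efnb1 at chrX:99135811-99136110 (plus).
Ephb1: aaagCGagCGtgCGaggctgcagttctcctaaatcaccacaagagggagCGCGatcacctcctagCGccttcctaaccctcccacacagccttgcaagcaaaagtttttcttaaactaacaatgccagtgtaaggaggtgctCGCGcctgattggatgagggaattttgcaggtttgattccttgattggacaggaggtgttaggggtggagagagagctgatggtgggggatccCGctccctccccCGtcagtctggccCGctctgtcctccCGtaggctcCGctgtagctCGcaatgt
Ephb3: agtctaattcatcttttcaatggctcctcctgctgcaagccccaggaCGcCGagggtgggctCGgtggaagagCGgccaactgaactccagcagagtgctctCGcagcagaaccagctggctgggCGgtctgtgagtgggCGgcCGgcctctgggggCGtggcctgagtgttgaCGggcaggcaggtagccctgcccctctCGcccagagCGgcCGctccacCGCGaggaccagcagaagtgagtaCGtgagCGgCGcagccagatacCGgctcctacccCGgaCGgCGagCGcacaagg
Ephb4: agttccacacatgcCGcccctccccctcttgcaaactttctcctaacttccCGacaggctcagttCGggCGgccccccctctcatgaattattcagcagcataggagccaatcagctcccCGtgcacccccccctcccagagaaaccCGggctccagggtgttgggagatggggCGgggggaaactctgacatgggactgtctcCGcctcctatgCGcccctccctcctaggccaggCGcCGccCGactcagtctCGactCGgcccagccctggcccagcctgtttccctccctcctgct
Efnb1: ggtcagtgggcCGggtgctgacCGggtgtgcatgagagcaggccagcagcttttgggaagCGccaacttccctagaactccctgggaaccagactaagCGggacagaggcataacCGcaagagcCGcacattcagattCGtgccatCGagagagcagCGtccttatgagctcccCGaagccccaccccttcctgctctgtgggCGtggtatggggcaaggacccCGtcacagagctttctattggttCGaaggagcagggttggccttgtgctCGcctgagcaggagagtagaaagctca
Ephb3 held 23 CG dinucleotides in its 300 bases and the other 3 held 14 each, against a median of 7 over 32851 promoters of the same length. A promoter was found for 9 of the 10 members, which held 14 to 35. The motifs CTTTGAT and CTTTGTT, which TCF factors bind, were searched on both strands. They were in 0 of the 9 and in 9.33% of all promoters. At so low a share, 9 promoters are too few to read a lack from.

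In naïve mice, 3 receptors were enriched in astrocyte ribosome-bound RNA (Ephb1, Ephb4 and Ephb3). Depleted from it were 4 receptors (Ephb2, Ephb6, Epha4 and Epha5) and 2 ligands (Efnb2 and Efnb3). This is a limma test of IP over INPUT on log2(CPM + 0.1) with an adjusted p under 0.05, in which 87.7% of 13339 genes were called, 23.7% as higher in IP and 64.0% as lower. So 9 of the 10 members were called, 3 of them higher and 6 lower, shares near those of all genes. The median gene had a log2 ratio of −0.64. CPM is scaled to each library's own total, and the 10 most abundant genes held 18.1 to 19.61% of an IP library against 3.65 to 3.92% of an INPUT library, whose part in the median was not tested. Ratios are also given relative to that median. Scaled so that the median gene was near 0, 5599 genes were higher and 5635 lower under median-ratio rescaling, and 5646 and 5483 under quantile normalization, against 3158 and 8540 on the CPM scale, and the members were split 4 higher to 6 lower under both, with Efnb1 as the added one. The IP libraries of these tests are among those that chose the family, but the contrast with INPUT did not. That choice may still raise the naïve ratio of Ephb3. In bulk RNA, fewer cells of a type and less of an mRNA per cell cannot be told apart.

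**Figure D1:**
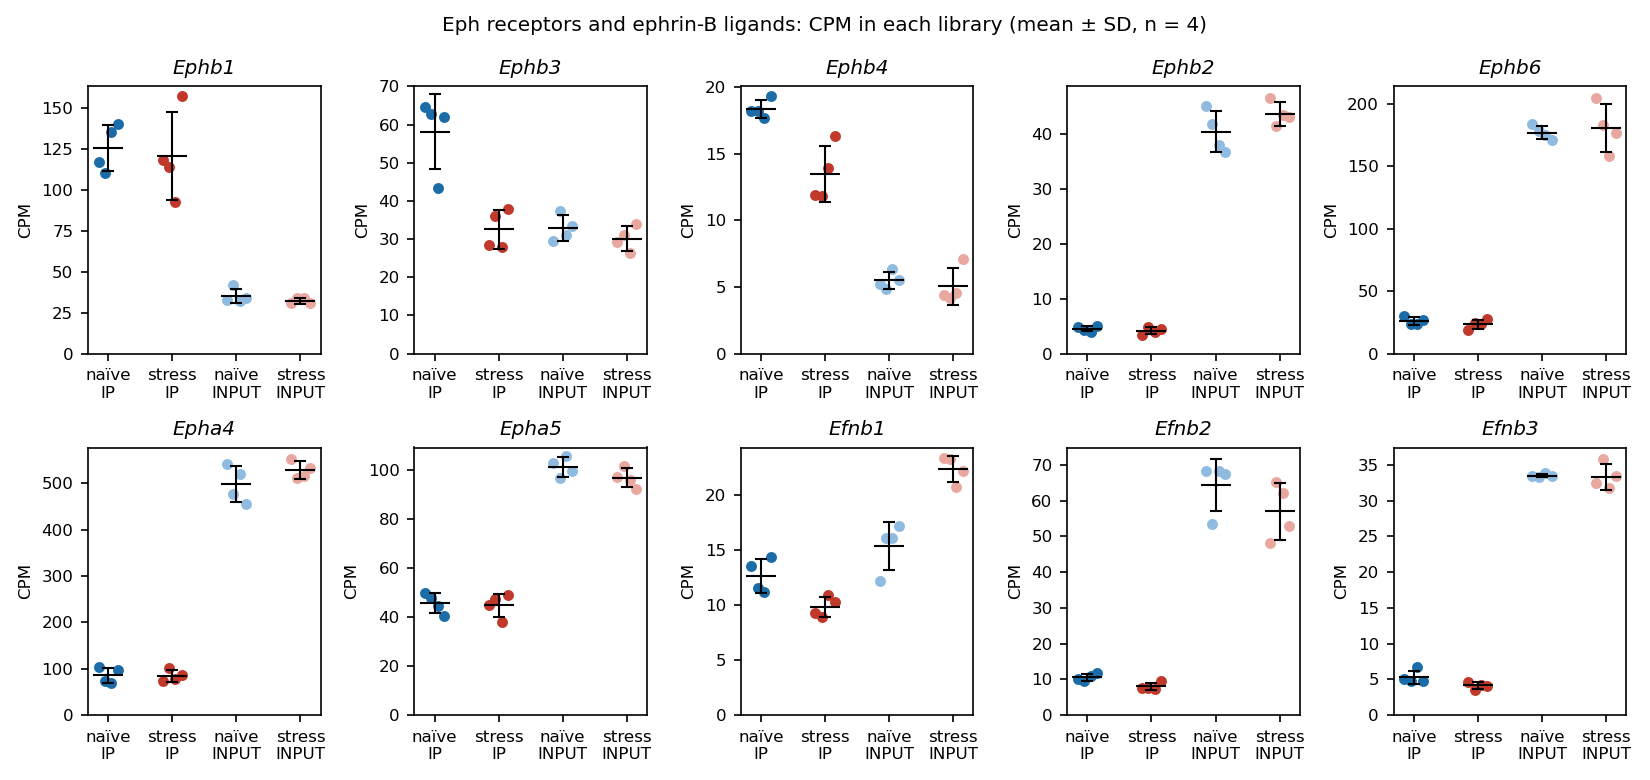
CPM of each of the 10 members (vertical axis, from 0, one panel per gene) in the IP and INPUT of naïve and stressed mice. Points are single libraries, and bars show the mean ± SD of 4. Ephb3 sat between 43.5 and 64.6 in naïve IP and between 28.0 and 37.9 in stress IP, and Efnb1 sat at 20.8 to 23.4 in stress INPUT against 12.2 to 17.2 in naïve INPUT.

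Ephb1, a receptor known for turning retinal axons at the optic chiasm, had the highest ratio of the 10 on the CPM scale, within the standard errors of Ephb4, and under quantile normalization Ephb4 (2.49) was above it (2.36). The gene is at chr9:101922128-102354693 on the minus strand of GRCm38. Its level was 117, 110, 135 and 140 CPM in the 4 naïve IP libraries and 32.8, 41.7, 31.9 and 34.1 CPM in the naïve INPUT libraries. Every IP value lay above every INPUT value. The log2 ratio was 1.83 (SE 0.10, adjusted p = 4.3e-10, 3.56-fold), or 2.47 above the median gene.

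Ephb4, the receptor for ephrin-B2 on venous endothelium, was enriched at a lower level. It lies at chr5:137350109-137378669 (plus strand) and measured 18.2, 18.2, 17.7 and 19.3 CPM in naïve IP and 5.25, 4.83, 6.38 and 5.54 CPM in naïve INPUT. The groups did not overlap, and the naïve IP libraries were close to each other. The log2 ratio was 1.73 (SE 0.11, adjusted p = 2.2e-09, 3.31-fold), or 2.36 above the median gene. The 4 endothelial markers, Cldn5, Pecam1, Esam and Flt1, were lower in the same IP libraries, and Pdgfrb of pericytes was higher (2.37). The cell type behind the level of Ephb4 was not tested.

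Ephb3, which acts with Ephb2 in guiding axons of the corpus callosum, was enriched less than Ephb1 and Ephb4. It lies at chr16:21204755-21223305 (plus strand) and measured 64.6, 62.7, 43.5 and 61.9 CPM in naïve IP and 29.6, 37.3, 31.0 and 33.4 CPM in naïve INPUT. Replicate 11 was the low IP library, and it was still above every INPUT library. The log2 ratio was 0.81 (SE 0.12, adjusted p = 2.0e-05, 1.76-fold), or 1.45 above the median gene, and 0.95 without replicate 11.

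Ephb2, a receptor that clusters NMDA receptors and forms dendritic spines, was the most depleted member. It lies at chr4:136647539-136835988 (minus strand) and measured 4.75, 4.30, 3.96 and 5.04 CPM in naïve IP against 45.1, 41.7, 38.0 and 36.7 CPM in naïve INPUT. Every IP value was far below every INPUT value. The log2 ratio was −3.14 (SE 0.10, adjusted p = 3.1e-12), an 8.79-fold lower level in IP and −2.50 relative to the median gene.

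Ephb6, whose kinase domain is inactive, followed. It lies at chr6:41605482-41620509 (plus strand) and measured 29.9, 23.4, 23.8 and 27.2 CPM in naïve IP against 184, 178, 175 and 171 CPM in naïve INPUT, with no overlap. Its log2 ratio was −2.76 (SE 0.08, adjusted p = 5.7e-13), or −2.13 relative to the median gene. Epha4, the receptor that binds ephrins of both classes, was the most abundant member of the lysate. It lies at chr1:77367185-77515088 (minus strand) and measured 103, 74.2, 68.8 and 96.3 CPM in naïve IP against 541, 477, 521 and 455 CPM in naïve INPUT. Relative to their level, the IP values spread more widely than those of INPUT. All stayed well below INPUT, with a log2 ratio of −2.56 (SE 0.11, adjusted p = 6.8e-11), or −1.92 relative to the median gene.

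Epha5, an EphA receptor of forebrain neurons, was depleted least. It lies at chr5:84054761-84417382 (minus strand) and measured 49.8, 47.7, 44.6 and 40.4 CPM in naïve IP and 103, 96.8, 106 and 99.7 CPM in naïve INPUT. The groups did not overlap. The log2 ratio of −1.15 (SE 0.07, adjusted p = 2.0e-09) was −0.52 relative to the median gene.

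Among the ligands, Efnb2, the ephrin of arterial endothelium, lies at chr8:8617434-8661242 (minus strand) and measured 10.0, 9.63, 10.8 and 11.9 CPM in naïve IP. In naïve INPUT it measured 68.3, 53.5, 68.3 and 67.5 CPM, with replicate 7 lowest and all 4 above IP. Its log2 ratio was −2.59 (SE 0.10, adjusted p = 1.2e-11), or −1.95 relative to the median gene. Efnb3, the midline barrier to corticospinal axons, lies at chr11:69554092-69560205 (minus strand) and measured 5.04, 4.70, 6.66 and 4.80 CPM in naïve IP against 33.4, 33.3, 33.8 and 33.4 CPM in naïve INPUT. The INPUT libraries were close to each other and all above IP, and the log2 ratio was −2.65 (SE 0.11, adjusted p = 3.6e-11), or −2.01 relative to the median gene.

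Efnb1, the X-linked ephrin-B whose loss disturbs craniofacial growth, was the member without a call in naïve mice. It lies at chrX:99136130-99148991 (plus strand) and measured 13.6, 11.6, 11.2 and 14.4 CPM in naïve IP and 12.2, 16.1, 16.1 and 17.2 CPM in naïve INPUT. The groups overlapped. The log2 ratio was −0.27 (SE 0.12, 95% confidence interval −0.54 to −0.01, adjusted p = 0.053), or 0.36 above the median gene, and its direction turned to 0.37 (adjusted p = 0.013) under median-ratio rescaling and 0.39 (adjusted p = 0.0092) under quantile normalization. In an exact two-sided permutation test over the 70 labelings of 8 libraries, p was 0.14.

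**Figure D2:**
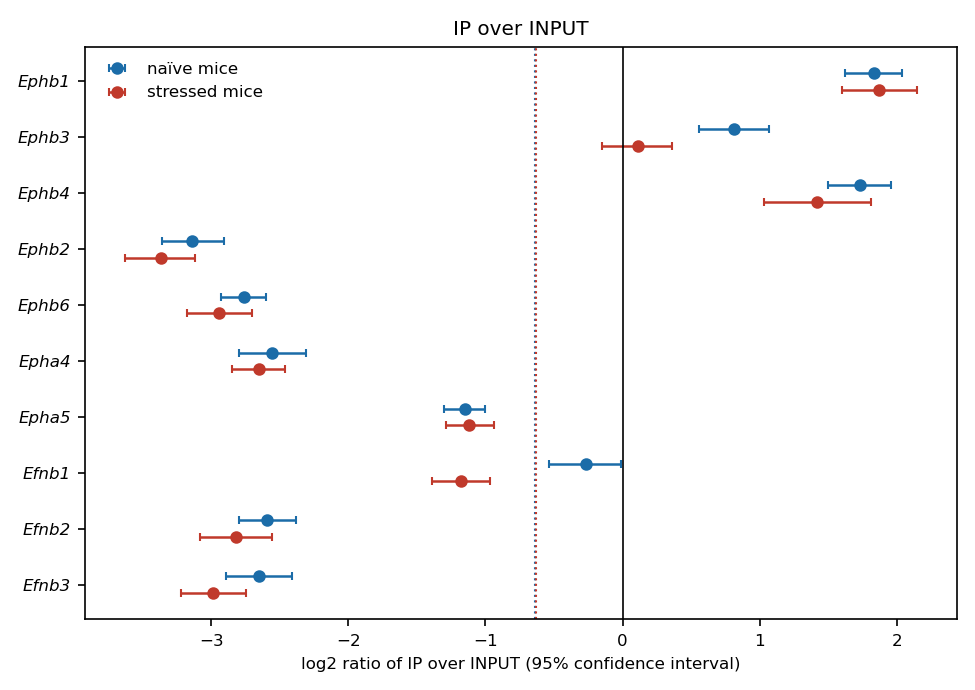
Log2 ratio of IP over INPUT (horizontal axis) for the 10 members in naïve (blue) and stressed (red) mice, with 95% confidence intervals from limma on 4 against 4 libraries. Dotted lines mark the median gene (−0.64 in naïve and −0.63 in stressed mice), and Ephb1, Ephb4 and, in naïve mice, Ephb3 lie to the right of 0.

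The same comparison in stressed mice, on 8 other libraries, called 86.1% of 13333 genes, 23.6% as higher and 62.5% as lower in IP. Of the members, 9 were called, 2 higher (Ephb1 and Ephb4) and 7 lower. Ephb1 measured 118, 114, 92.7 and 157 CPM in stress IP and 30.7, 33.7, 33.6 and 30.8 CPM in stress INPUT. Its IP values were again all higher (log2 ratio 1.87, SE 0.13, adjusted p = 1.8e-08), with a wide spread between replicates 6 and 15. Ephb4 measured 11.9, 11.8, 13.9 and 16.3 CPM in stress IP and 4.39, 4.19, 4.52 and 7.12 CPM in stress INPUT, where replicate 12 was high. The groups did not overlap (log2 ratio 1.42, SE 0.18, adjusted p = 7.4e-06).

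Ephb3 and Efnb1 were the members called in one state of the mice and not in the other, a difference that was not tested. The family was picked for the fall of Ephb3 between the naïve and stress IP libraries. For Ephb3 that choice may set this difference, so nothing is read from it. Ephb3 measured 28.4, 36.1, 28.0 and 37.9 CPM in stress IP and 29.2, 31.0, 26.3 and 33.9 CPM in stress INPUT. The groups overlapped, and the log2 ratio was 0.11 (SE 0.12, 95% confidence interval −0.15 to 0.36, adjusted p = 0.40). That ratio was still 0.74 above the median gene, and Ephb3 was called as higher in stressed IP after median-ratio rescaling (log2 ratio 0.74, adjusted p = 9.1e-05) and after quantile normalization (0.71, adjusted p = 6.7e-05).

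Efnb1 measured 9.32, 8.93, 10.9 and 10.3 CPM in stress IP and 23.4, 23.3, 20.8 and 22.2 CPM in stress INPUT. Every IP value was below every INPUT value, with a log2 ratio of −1.18 (SE 0.10, adjusted p = 1.3e-07), a 2.26-fold lower level. It remained lower under both rescalings (−0.55 and −0.53). The other 6 depleted members had log2 ratios from −3.37 (Ephb2) to −1.12 (Epha5) in stressed mice, each with groups that did not overlap.

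Levels of different genes were compared as CPM per kilobase of exon, matched to RefSeq transcripts. In naïve IP, Ephb1 was first at 26.9 ± 3.06 CPM per kb (SD, n = 4 here and below). Ephb3 (13.9 ± 2.35) and Epha4 (13.5 ± 2.64) came next and overlapped each other. Ephb6 (6.93 ± 0.817) and Epha5 (6.23 ± 0.559) overlapped, as did Ephb4 (4.21 ± 0.157) and Efnb1 (3.90 ± 0.479), and then Efnb2 (2.21 ± 0.211) and Efnb3 (1.67 ± 0.288). Ephb2 was last at 0.414 ± 0.0438 CPM per kb.

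The order in naïve INPUT differed. Epha4 led at 78.8 ± 6.23 CPM per kb and Ephb6 followed at 47.0 ± 1.56. Epha5 (13.8 ± 0.554) and Efnb2 (13.4 ± 1.52) overlapped, ahead of Efnb3 (10.5 ± 0.0607). Ephb3 (7.84 ± 0.804) overlapped Ephb1 (7.53 ± 0.962), Efnb1 (4.72 ± 0.675) overlapped Ephb2 (3.70 ± 0.349), and Ephb4 was last at 1.26 ± 0.151 CPM per kb. In stress IP, Ephb3 stood at 7.79 ± 1.23 CPM per kb, below Epha4 (13.4 ± 1.94) with no overlap and overlapping Ephb6 (6.27 ± 0.943). These orders depend on the exon length used. The level of Epha5 in naïve IP was 2.73 CPM per kb with the union of GENCODE exons, behind Ephb4 (3.96) and Efnb1 (3.68), and this length put Epha4 (10.6) ahead of Ephb3 (8.76). In naïve INPUT it put Efnb3 (10.5) ahead of Efnb2 (9.39) and Epha5 (6.06), and Ephb1 (5.02) ahead of Ephb3 (4.94).

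In whole cortex, stress left no member past the threshold. Of 13577 genes, 6 were called between stress and naïve INPUT by limma (0.0442%) and 683 had an unadjusted p under 0.05. Of the members, 0 of 10 were called, by limma or by limma-voom on recovered reads, and 1 of 10 (Efnb1) had an unadjusted p under 0.05. These libraries had no part in choosing the family. Of 27 cell type markers, 0 were called in them by limma or limma-voom, and 8 had an unadjusted p under 0.05 by limma. Log2 fold changes were below 0 for 19 of the 27, among them all 5 of endothelium and mural cells (−0.68 to −0.07). The part of these levels in the members' INPUT values was not tested.

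Efnb1 was the member with separate groups. Its 4 stress INPUT values (20.8 to 23.4 CPM, mean 22.4 ± 1.24) were all above its 4 naïve INPUT values (12.2 to 17.2 CPM, mean 15.4 ± 2.20). Across all genes, 1.43% had every stress INPUT value above every naïve INPUT value, and 1 of the 10 members did. The log2 fold change was 0.55 (SE 0.11, 95% confidence interval 0.32 to 0.78, 1.46-fold), the adjusted p was 0.11, and the exact permutation p was 0.029, the smallest that 70 labelings allow. Its adjusted p ran from 0.063 to 0.43 over the alternative settings, and the fold change from 0.44 to 0.61 on the log2 scale when single libraries were left out, the lowest without naïve INPUT replicate 3.

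The other 9 members overlapped between stress and naïve INPUT, with log2 fold changes of −0.18 to 0.11. For Ephb3 the change was −0.13 (SE 0.09, 95% confidence interval −0.33 to 0.08). For Ephb4 the change was −0.15 (95% confidence interval −0.52 to 0.23), and −0.32 without stress INPUT replicate 12. Epha4, at 541, 477, 521 and 455 CPM in naïve and 553, 512, 515 and 534 CPM in stress INPUT, changed by 0.09 (95% confidence interval −0.04 to 0.21).

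Ephb6 measured 205, 183, 158 and 177 CPM in stress INPUT, a change of 0.02 on the log2 scale (95% confidence interval −0.13 to 0.17). Efnb3 measured 32.4, 35.8, 31.7 and 33.4 CPM there (−0.01, −0.15 to 0.13). Efnb2 measured 48.1, 65.2, 62.3 and 52.8 CPM there (−0.18, −0.40 to 0.05). These ranges all crossed the naïve ones. Ephb2 measured 46.5, 41.3, 43.4 and 43.1 CPM in stress INPUT, with a change of 0.11 (95% confidence interval −0.05 to 0.28). Epha5 measured 97.5, 102, 96.2 and 92.5 CPM there (−0.07, −0.18 to 0.05). Ephb1 stayed within 30.7 to 33.7 CPM (−0.12, −0.31 to 0.07).

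Astrocyte ribosome-bound RNA gave the contrast behind the choice of the family. Ephb3 was at 28.4, 36.1, 28.0 and 37.9 CPM in stress IP against 64.6, 62.7, 43.5 and 61.9 CPM in naïve IP. The groups did not overlap, and the lowest naïve library, replicate 11, was 43.5 CPM against a highest stress library of 37.9 CPM. The log2 fold change was −0.83 (SE 0.14), a 1.78-fold lower level, with −0.96 to −0.76 when single libraries were left out. It was −0.96 without naïve IP replicate 11 and −0.91 without stress IP replicate 15. This was the 15th largest fall among 12501 genes by fold change and the largest among the genes called, which were 55 in number (0.440%). Of the members, 1 of 10 was called here, which the choice of the family fixes.

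**Figure D3:**
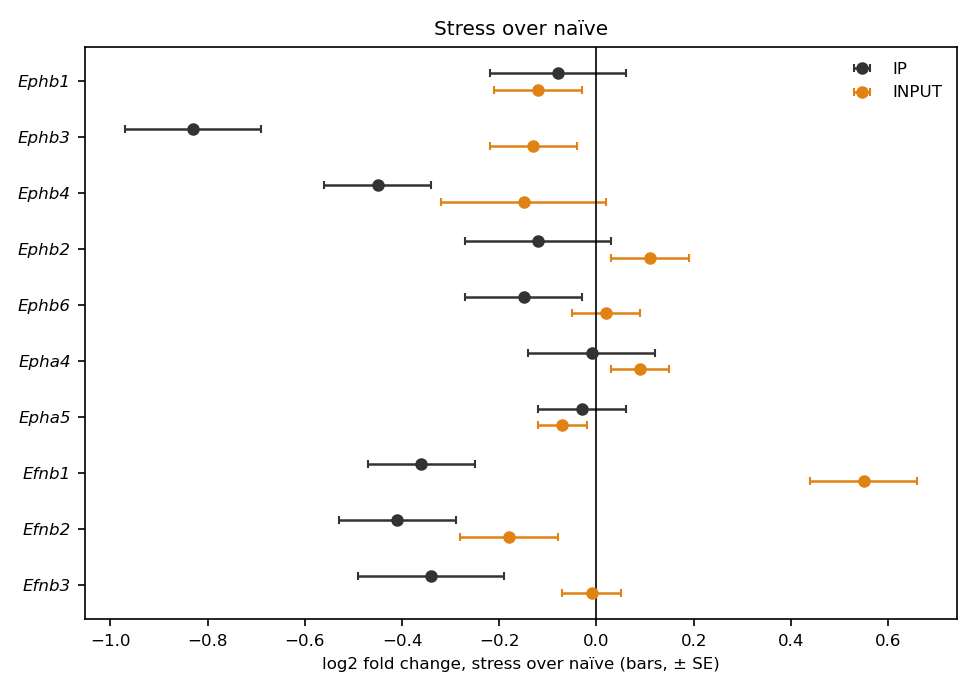
Log2 fold change of stress over naïve (horizontal axis) for the 10 members in IP (dark) and INPUT (orange), with bars of ± SE from limma on 4 against 4 libraries. Ephb3 is lowest in IP at −0.83, and Efnb1 lies at −0.36 in IP and 0.55 in INPUT. The IP values chose the family and are a description.

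Of the 3 ligands, 0 were called in stress IP by limma, and all 3 had stress values below every naïve value, as 2.62% of all genes did, which the choice of the family may set. Efnb1 measured 13.6, 11.6, 11.2 and 14.4 CPM in naïve and 9.32, 8.93, 10.9 and 10.3 CPM in stress IP, a log2 fold change of −0.36 (SE 0.11). Efnb2 measured 10.0, 9.63, 10.8 and 11.9 CPM in naïve and 7.63, 7.64, 7.21 and 9.48 CPM in stress IP (−0.41, SE 0.12). Efnb3 measured 5.04, 4.70, 6.66 and 4.80 CPM in naïve and 4.68, 3.55, 4.20 and 4.10 CPM in stress IP (−0.34, SE 0.15). None of the 3 overlapped, but for Efnb3 the nearest libraries were 4.70 and 4.68 CPM.

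Among the other receptors, Ephb4 measured 18.2, 18.2, 17.7 and 19.3 CPM in naïve and 11.9, 11.8, 13.9 and 16.3 CPM in stress IP. The groups were separate, with a log2 fold change of −0.45 (SE 0.11). Ephb1, Ephb2, Ephb6, Epha4 and Epha5 overlapped, with log2 fold changes of −0.08, −0.12, −0.15, −0.01 and −0.03. Epha4 ranged from 73.3 to 101 CPM in stress IP and from 68.8 to 103 CPM in naïve IP. Epha5 ranged from 38.0 to 48.9 CPM in stress IP and from 40.4 to 49.8 CPM in naïve IP. The same overlap held for Ephb2 (3.34 to 4.83 against 3.96 to 5.04 CPM) and Ephb6 (19.1 to 27.8 against 23.4 to 29.9 CPM). Ephb1 spread from 92.7 to 157 CPM in stress IP, on both sides of its naïve libraries (110 to 140 CPM).

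All 10 members had a log2 fold change below 0 in IP, against 51.1% of 12501 genes, although that of Epha4 was 0.00 under quantile normalization and those of Ephb1, Epha4 and Epha5 turned positive when some single libraries were left out. Every stress value lay below every naïve value for 5 of the 10, against 2.62% of all genes. The rule used this contrast, and nothing is read from these counts. The summed level of the 5 endothelial and mural markers was 133 to 162 CPM in naïve IP and 97.4 to 141 CPM in stress IP. None of them was at 0. This sum is mostly Pdgfrb, which was higher in IP than in INPUT while the other 4 were lower. The summed level of the 6 neuronal markers was 432 to 558 and 355 to 503 CPM. The 6 astrocyte markers summed to 80800 to 85600 and 78200 to 89400 CPM. Of 24 markers tested between stress and naïve IP, 0 were called by limma or limma-voom and 5 had an unadjusted p under 0.05 (Aqp4, Gfap, Snap25, Flt1 and Pdgfrb), beside 1034 of 12501 genes, and the part of these levels in the members' values was not tested.

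Set side by side, the fold changes of stress in IP and INPUT were −0.83 and −0.13 for Ephb3, −0.36 and 0.55 for Efnb1, and −0.45 and −0.15 for Ephb4. The difference between them (IP minus INPUT) was −0.91 (SE 0.16) for Efnb1 and −0.70 (SE 0.18) for Ephb3 on the log2 scale. For the other 8 members it ran from −0.34 (Efnb3) to 0.04 (Ephb1 and Epha5). These differences contain the contrast that chose the family, and have no test.

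The genes with profiles most like that of Ephb3 over the 16 libraries, among 13340 genes, were Olig2 (Pearson r = 0.910), a transcription factor of the oligodendrocyte lineage, Cpeb4 (0.904), which binds mRNA to regulate its translation, and Spry2 (0.897), an inhibitor of receptor tyrosine kinase signalling. The points fall into 4 groups and share the difference of IP from INPUT. They also include the IP contrast that chose the family, so r is a description. Olig2 was at 61.7 ± 23.6 CPM in naïve IP, 29.5 ± 4.58 CPM in stress IP, 24.8 ± 3.92 CPM in naïve INPUT and 21.7 ± 1.62 CPM in stress INPUT (SD, n = 4). Its mean was thus higher in naïve IP than in naïve INPUT, whereas the markers of oligodendrocytes and their precursors were lower in naïve IP. The cell type behind the level of Olig2 was not tested. Of the members, Ephb4 (r = 0.697) and Ephb1 (r = 0.592) were closest to Ephb3, and the other 7 had a negative r. Axin2 is a textbook target of β-catenin like Ephb3. Its IP level was 61.6 ± 1.34 CPM (naïve) against 37.3 ± 3.27 CPM (stress). Its INPUT level was 42.4 ± 4.22 CPM (naïve) against 41.5 ± 2.88 CPM (stress, SD, n = 4 throughout). The promoters of Axin2 and Ephb3 held neither of the TCF motifs searched above. Sites outside these short stretches were not searched, so this cannot speak to β-catenin. Whether β-catenin had a part in the levels of either gene was not tested.

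Of the 12 other Eph and ephrin-A genes, 9 passed the filter on low values in naïve mice, and these 9 were called lower in IP on the CPM scale, with a median log2 ratio of −2.77. They ran from Efna3 (−4.31) to Efna2 (−0.44) among the ligands, with Efna1 and Efna5 between them, and from −2.98 to −1.94 among the receptors Epha3, Epha6, Epha7, Epha8 and Epha10. Efna2 was above the median gene, and its direction turned to 0.19 (adjusted p = 0.12) under median-ratio rescaling and 0.35 (adjusted p = 0.011) under quantile normalization, while the other 8 remained lower. Epha1, Epha2 and Efna4 were too low to be tested, and Efna4 measured 0.587, 0.672, 0.666 and 0.232 CPM in naïve IP against 0.169, 0.353, 0 and 0.356 CPM in naïve INPUT, with overlap. These 9 were also called lower in stressed mice on the CPM scale, except that Efna2 turned to 0.12 (adjusted p = 0.43) under median-ratio rescaling and 0.32 (adjusted p = 0.046) under quantile normalization. In INPUT, limma and limma-voom called 0 of 10 between stress and naïve, and 1 (Epha2) had an unadjusted p under 0.05. In IP the log2 fold changes of the 7 tested ran from −0.27 to 0.14, with a median of −0.16 against −0.24 for the members and −0.00 for all genes.

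Genes that carry the signal of Eph receptors and ephrins were listed by role, 51 in all. In naïve mice 49 could be tested, of which 12 were higher in IP, 31 lower and 6 not called, shares near the 23.7% and 64.0% of all genes, with a median log2 ratio of −0.36 against −0.64 for all genes. The split was 25 higher to 21 lower under median-ratio rescaling and 22 to 20 under quantile normalization. Most enriched were Ptpn13, a phosphatase that docks on ephrin-B (3.28, SE 0.07, adjusted p = 4.9e-14), Vav3 (1.94), and Yes1, a Src family kinase (1.66). Ptpn13 measured 209 ± 6.82 CPM in naïve IP and 21.5 ± 1.99 CPM in naïve INPUT (SD, n = 4). Most depleted were Arhgef15, an exchange factor that acts with EphB2 at synapses (−3.56), Grin1, the NMDA receptor subunit that EphB2 binds (−3.52), and Grb10, an adaptor (−3.37).

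**Figure D4:**
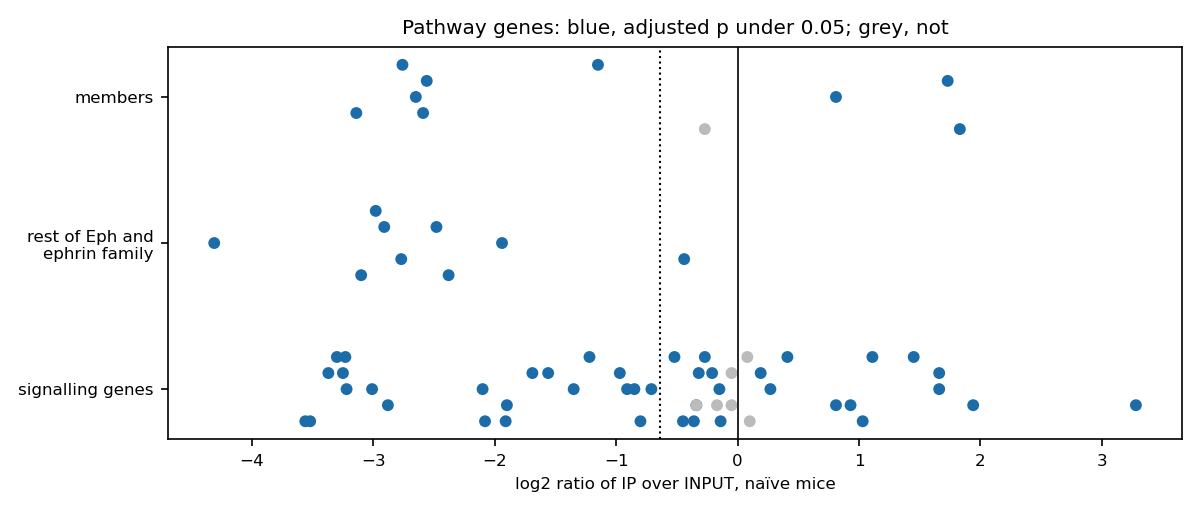
Log2 ratio of IP over INPUT in naïve mice (horizontal axis) for the 10 members, 9 other family genes and 49 signalling genes, each in a row of its own group and each point a gene, blue with an adjusted p under 0.05 and grey otherwise. The dotted line marks the median gene at −0.64, and the rest of the family lies wholly to the left of 0.

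By role, 4 of 17 kinases, adaptors and phosphatases were higher in naïve IP and 10 lower. Of 8 PDZ and reverse signalling partners, 1 was higher and 6 lower. In stressed mice, 12 of the 49 signalling genes were higher and 33 lower, beside 23.6% and 62.5% of all genes, and the split was 24 to 19 under median-ratio rescaling and 22 to 20 under quantile normalization. Between stress and naïve INPUT, limma and limma-voom called 0 of 50, and 1 (Rgs3, which couples ephrin-B to G proteins) had an unadjusted p under 0.05. In IP 0 of 48 were called by limma or limma-voom, 3 had an unadjusted p under 0.05 (1034 of 12501 over all genes), and their median log2 fold change was −0.00.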

How the data were processed

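Per the methods, the authors mapped the reads with STAR on mm10, used HTSeq to count unique fragments per RefSeq gene, and deposited the log2 CPM of 24060 genes for each library, with limma and edgeR also named in the submitters' processing notes. The deposited log2 values share a floor of −6.40, and 100% of the CPM recovered from them were whole reads (tolerance 0.1 reads).

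The values were converted to CPM and tested by lmFit and eBayes with a variance trend (limma 3.58.1, R 4.3.3) on log2(CPM + 0.1), so fold changes of low genes are understated. Tests covered genes whose mean exceeded 1 CPM over the 8 libraries, with a Benjamini-Hochberg adjusted p under 0.05 over all of them. Libraries were treated as independent. Where groups were separate, the exact two-sided permutation test over 70 labelings gave p = 0.029, the smallest possible. The fit was tested on simulated reads. The members, the gene lists and the tests were chosen with earlier results of these data known. Named genes were the 10 members, each family gene past a threshold, the 3 highest and 3 lowest signalling genes, the 3 genes most like Ephb3, and Axin2. Single marker genes, Epha2, Rgs3, and the libraries that stood apart were named after their values were seen. Afdn is listed under its older symbol, Mllt4.

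Gene coordinates are from GENCODE M21 on GRCm38 (mm10), and promoter sequences from RefSeq on GRCm38.p6. Protein sequences were not used here, and the counts of one signalling role are not reported here. Per-kilobase levels used exons matched to RefSeq, or the union of GENCODE exons, added after seeing the data. Python 3.11.15, NumPy 2.4.6, pandas 2.3.3, SciPy 1.17.1 and matplotlib 3.10.9 made tables and plots. Because PCR copies molecules, depth floors cover counting error only.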

Additional observations from a re-analysis of the deposited data

Results flagged for a closer look

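Each of the 40 groups of 4 libraries (10 members in 4 groups) was checked for a library far from the other 3, by the gap to its neighbour over the whole range. There were 3 such libraries, where chance gives about 2. Ephb3 was 43.5 CPM in naïve IP replicate 11 against 61.9 to 64.6 CPM for the others of that group. Ephb4 was 7.12 CPM in stress INPUT replicate 12 and 4.19 to 4.52 CPM in the others. Efnb2 was 53.5 CPM in naïve INPUT replicate 7 and 67.5 to 68.3 CPM in the others.

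The stress effects on Efnb1 had opposite signs in the fractions. All 4 stress IP libraries were below all naïve IP libraries and all 4 stress INPUT libraries above all naïve INPUT libraries, and the difference of the effects was −0.91 (SE 0.16) on the log2 scale. The difference was not tested, since it contains the contrast that chose the family.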

How the results depend on the processing

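Members called numbered 9 of 10 in naïve and in stressed mice for IP over INPUT and 0 in INPUT for stress, and ranged from 9 to 10, 9 to 10 and 0 to 0 over 11 alternatives with all libraries kept. For Efnb1 in naïve mice, IP over INPUT turned from −0.27 to 0.37 under median-ratio rescaling and 0.39 under quantile normalization, and passed the threshold at −0.28 with limma-voom or array weights, −0.27 with all 16 libraries in one model, −0.34 without naïve IP replicate 13 and −0.38 without naïve INPUT replicate 3. For Ephb3 in stressed mice it passed at 0.74 and 0.71 under the same rescalings. Ephb3 in stress over naïve IP ran from −0.96 to −0.76 without single libraries.

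Over all genes, the 55 called between stress and naïve IP became 143 with array weights, 19 without a variance trend, 124 with all 16 libraries in one model, and 17 to 122 without single libraries. The 6 called in INPUT became 50, 0 and 2 in these settings and 1 to 32 without single libraries. Beside the 0 in INPUT without a trend, 727 genes had an unadjusted p under 0.05. The cause of these changes was not tested. Filters at a mean of 5 CPM or 1 FPKM gave no value for Ephb2 or Efnb3 in some IP comparisons. No paired analysis of IP and INPUT was made, because the labels do not say which libraries came from the same mouse. Depth limits the members with the fewest reads (Ephb2 and Efnb3 in IP and Ephb4 in INPUT, 72 to 170 reads).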
